A study of Mus musculus with 8 samples.

Results

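The genes described here are the 3 transforming growth factor-beta (TGF-beta) ligands Tgfb1, Tgfb2 and Tgfb3, the signaling receptors Tgfbr1, Tgfbr2 and Acvrl1, the co-receptors Tgfbr3 and Eng, and the latent TGF-beta binding proteins Ltbp1 and Ltbp2. They were chosen by gene symbol from the deposited RNA-Seq table, and all 10 were found in it, among 22520 genes in all. TGF-beta is secreted in a latent form, in which its propeptide keeps it from binding its receptors, and latent TGF-beta binding proteins attach that complex to the extracellular matrix. Once released, the ligand binds the type II receptor kinase TGFBR2, which then activates a type I receptor kinase. In most cells the type I receptor is TGFBR1 (ALK5), which acts through SMAD2 and SMAD3, and in endothelial cells ACVRL1 (ALK1) acts through SMAD1, SMAD5 and SMAD9. Betaglycan (TGFBR3) and endoglin (ENG) present ligands to these kinases, and endoglin and ACVRL1 are known for their role in blood vessel formation, where loss of either in people causes hereditary hemorrhagic telangiectasia.

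The study asked how loss of LRP1, a large receptor that takes up many ligands into cells and is related to the LDL receptor, alters gene expression in endothelial cells. All mice carried floxed Lrp1 alleles (LRP1 f/f) on the C57BL/6 background, and the groups were littermates at postnatal day 14. The WT group (4 libraries) lacked the Cre transgene (Cdh5-CreER-/-), and the LRP1 KO group (4 libraries) carried a single copy (Cdh5-CreER+/-), a tamoxifen-inducible Cre recombinase driven by the promoter of the endothelial cadherin gene Cdh5. By the labels, a library holds mixed heart, liver and lung cells, and the study's methods describe endothelial isolation with PECAM-1 antibody beads. The sources do not say how many animals stand behind a library, so p-values measure only the spread between these libraries, which may be technical.

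The deposited levels were taken as quantile-normalized FPKM (fragments scaled by transcript length and by the number of mapped fragments), so every library sums to nearly the same total (503571 to 504112) and its depth is unknown. Lrp1 was measured first as a check of the labels. In the order of libraries 1 to 4, which all values per library follow below, its level was 113, 140.4, 103 and 124 FPKM across WT and 3.45, 5.197, 2.79 and 7.72 FPKM across LRP1 KO, a mean of 3.99% of WT in the knockouts. Endothelial markers were present in every library, but the summed level of the 10 fibroblast markers (2023 to 3616 FPKM over the 8 libraries) was far above that of the 16 endothelial markers (116 to 487 FPKM), which goes against a purely endothelial label. The endothelial sum was 116 to 131 FPKM in WT, 274 to 487 FPKM in LRP1 KO libraries 1 to 3 and 117 FPKM in LRP1 KO library 4. That library therefore stood apart from the other knockouts, and on the first principal component (60.8% of the variance) it lay at 0.102, between WT (-24.1 to -12.9) and the other LRP1 KO libraries (17.2 to 27.3). The numbers of members and pathway genes called are therefore also given without it. In such bulk samples, fewer cells of a type and less RNA per cell cannot be told apart.

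The start regions of the members that differed between the groups are shown here, because genes that move together can be compared by what lies before their start. The set of RefSeq starts used here (GRCm38.p6) covered 7 of the 10 genes in 9 windows, and did not include Tgfb3, Tgfbr3 and Acvrl1. Each sequence below holds the 250 bases before a RefSeq start, 5′ to 3′ on the gene's strand. Capitals mark matches on either strand to CAGACA, a SMAD-binding core, to AGGAAG, a core bound by ETS factors, or to TATAAA, the TATA box, and these motifs do not overlap in the windows shown.
Eng, chr2:32646345-32646594, plus strand: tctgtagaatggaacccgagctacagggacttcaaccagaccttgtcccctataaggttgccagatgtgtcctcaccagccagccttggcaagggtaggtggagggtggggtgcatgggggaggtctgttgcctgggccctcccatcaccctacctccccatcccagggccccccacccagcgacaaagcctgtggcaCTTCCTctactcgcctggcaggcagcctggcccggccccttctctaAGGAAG
Tgfb2, chr1:186705990-186706239, minus strand: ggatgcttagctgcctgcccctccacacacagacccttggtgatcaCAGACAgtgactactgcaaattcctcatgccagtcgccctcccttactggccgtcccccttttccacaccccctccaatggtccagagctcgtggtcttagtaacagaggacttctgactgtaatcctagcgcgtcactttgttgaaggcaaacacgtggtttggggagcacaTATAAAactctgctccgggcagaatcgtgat
Ltbp1, upstream start, chr17:75005279-75005528, plus strand: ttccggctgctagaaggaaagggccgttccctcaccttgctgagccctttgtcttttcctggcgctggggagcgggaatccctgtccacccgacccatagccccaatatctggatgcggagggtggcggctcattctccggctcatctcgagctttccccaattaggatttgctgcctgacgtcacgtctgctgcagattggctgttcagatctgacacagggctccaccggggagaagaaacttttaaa
Ltbp1, downstream start, chr17:75178531-75178780, plus strand: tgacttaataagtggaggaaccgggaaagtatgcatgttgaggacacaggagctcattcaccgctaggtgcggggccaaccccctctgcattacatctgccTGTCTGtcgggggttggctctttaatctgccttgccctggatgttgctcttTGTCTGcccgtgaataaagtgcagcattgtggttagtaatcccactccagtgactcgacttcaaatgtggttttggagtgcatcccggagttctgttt
Ltbp2, chr12:84876492-84876741, minus strand: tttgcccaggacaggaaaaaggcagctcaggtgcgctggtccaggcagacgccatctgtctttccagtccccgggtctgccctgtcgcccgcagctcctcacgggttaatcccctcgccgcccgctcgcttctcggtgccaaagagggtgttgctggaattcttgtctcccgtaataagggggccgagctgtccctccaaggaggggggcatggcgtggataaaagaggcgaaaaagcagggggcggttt

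The Eng window (62.4% G and C) held 2 matches to AGGAAG, beginning 52 and 6 bases before the start, the first of them on the opposite strand. The Tgfb2 window (53.6%) held a CAGACA at 204 bases and a TATAAA at 31 bases before the start. Ltbp1 has a pair of annotated starts 173252 bases apart. The upstream window (56.8%) held none of the 3 motifs, and the downstream window (50.8%) held 2 matches to CAGACA on the opposite strand, beginning 149 and 98 bases before the start. The Ltbp2 window (61.6%) held none. Over all 32817 RefSeq windows of the same length, 17.1% held CAGACA, 29.5% AGGAAG and 12.4% TATAAA, so a window with at least 1 such match is not rare. How often windows hold 2 matches, or a match at a given distance from the start, was not counted. Matches describe the letters in the windows and nothing more.

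Of the 10 genes, 3 rose in LRP1 KO (Eng, Tgfb2 and Acvrl1), 2 fell (Ltbp1 and Ltbp2), and 5 did not pass the test (Tgfb1, Tgfb3, Tgfbr1, Tgfbr2 and Tgfbr3). The test was limma on log2(FPKM + 1) across 11389 genes with a level of at least 1 FPKM in at least 4 libraries, with Benjamini-Hochberg adjustment and a threshold of 0.05, and all 10 genes passed that filter. By the same test 13.6% of all genes were called, 6.27% as higher and 7.31% as lower. No member passed both the adjusted p and a 2-fold change on this scale, against 1.62% of all genes, although 7 had an unadjusted p under 0.05, against 33.7% of all genes. For 5 members the 2 groups did not overlap, against 19.6% of all genes. The median log2 fold change of the 10 was -0.06, beside -0.01 over all genes tested. Leaving out single libraries moved the number of members called: 3, 1, 3 and 3 were called without WT libraries 1, 2, 3 and 4, and 1, 0 and 1 without LRP1 KO libraries 1, 2 and 3. In the same fits 7.43, 4.43, 8.08 and 8.74% of all genes were called without the WT libraries, and 4.23, 3.83 and 4.15% without those LRP1 KO libraries. Of the members, 6 still had an unadjusted p under 0.05 without LRP1 KO library 2, against 28.4% of all genes. Without LRP1 KO library 4, 7 were called, Tgfb3 and Tgfbr3 being added as lower, against 26.2% of the 11297 genes then tested.

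**Figure D1:**
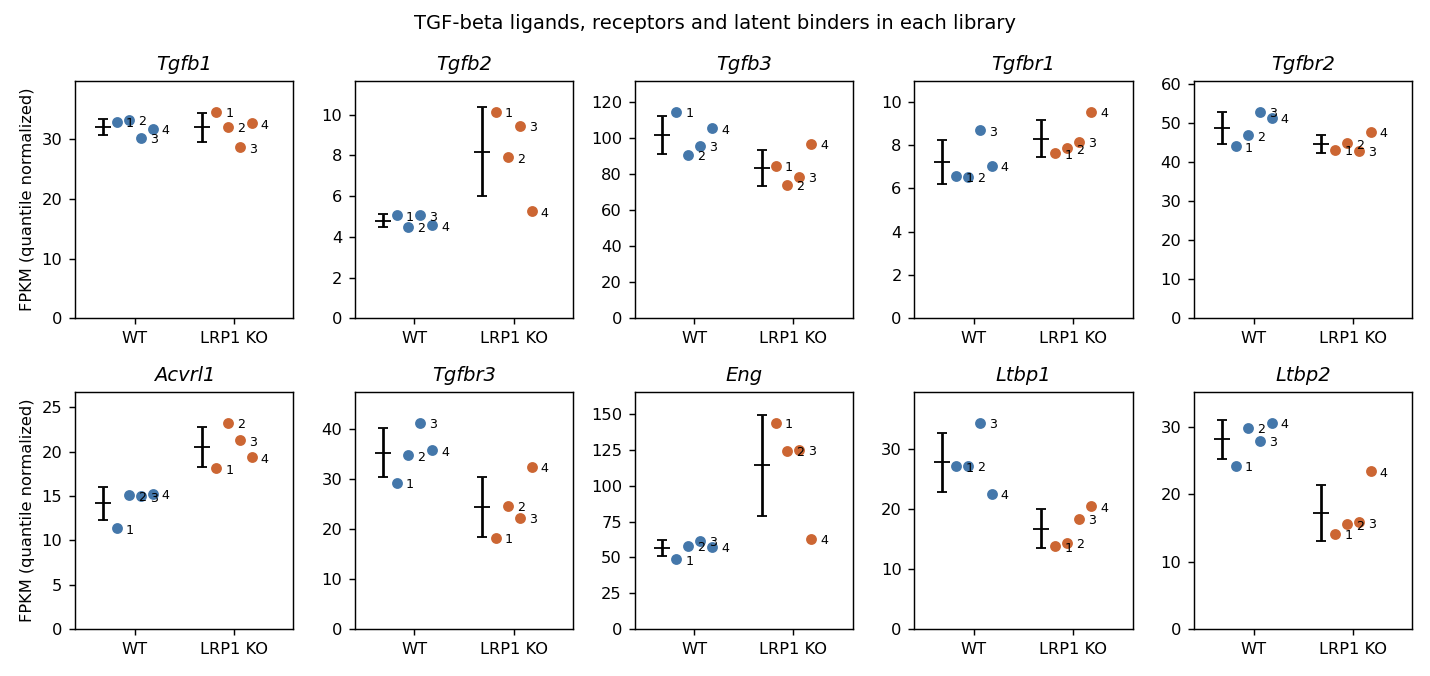
Level of each of the 10 genes in each library, in quantile-normalized FPKM (y axis from 0), with WT in blue and LRP1 KO in orange, the library number beside each point, and bars for the mean ± SD of 4 libraries. Eng, Tgfb2 and Acvrl1 lie higher and Ltbp1 and Ltbp2 lower in all 4 LRP1 KO libraries than in any WT library, and LRP1 KO library 4 lies nearest to WT for Eng, Tgfb2, Ltbp1 and Ltbp2.

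Among the ligands, only Tgfb2 passed the test. Tgfb2, the isoform that depends most on betaglycan for binding to TGFBR2, measured 5.06, 4.496, 5.07 and 4.57 FPKM over the WT libraries. The LRP1 KO libraries gave 10.1, 7.92, 9.46 and 5.26 FPKM. All knockouts were above all WT libraries, but library 4 by little. The means were 4.799 ± 0.307 FPKM for WT and 8.19 ± 2.17 FPKM for LRP1 KO (SD, n = 4 each), and Tgfb2 rose by 0.63 on the log2(FPKM + 1) scale (SE 0.16, 95% CI 0.27 to 0.997, limma adjusted p = 0.03403, exact two-sided permutation p = 0.0286, the smallest that 4 against 4 libraries allow). The call held without LRP1 KO library 4 (0.81, limma adjusted p = 0.000898). It was lost when any other single library was left out (limma adjusted p 0.0614 to 0.1002) and when genes with low levels were kept in the fit (0.0701). Tgfb2 (ENSMUSG00000039239) lies on the minus strand of chromosome 1 (186622792 to 186705989, GRCm38).

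Tgfb3, the most abundant ligand, measured 115, 90.8, 95.6 and 105 FPKM across WT and 84.7, 73.9, 78.5 and 96.7 FPKM across LRP1 KO. The groups overlapped through LRP1 KO library 4, which lay above WT libraries 2 and 3. The difference was -0.28 (SE 0.10, 95% CI -0.50 to -0.06, limma adjusted p = 0.0811, exact permutation p = 0.0857), and it passed the threshold without LRP1 KO library 4 (-0.35, limma adjusted p = 0.0191) but in no other fit that left out a library (0.0950 to 0.195). Of the exonic bases of Tgfb3 (ENSMUSG00000021253) on chromosome 12 (86056745 to 86079041, minus strand), 12.4% are also exonic in genes annotated on the opposite strand. The sources used here do not say whether strand was kept, so reads from such bases cannot be assigned with certainty.

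Tgfb1, the isoform expressed in the widest range of tissues, measured 32.9, 33.2, 30.2 and 31.8 FPKM across WT and 34.6, 32.1, 28.7 and 32.6 FPKM across LRP1 KO. The libraries of the groups intermingled. The difference was -0.00 (SE 0.07, limma adjusted p = 0.973, exact permutation p = 0.943), with a 95% confidence interval of -0.15 to 0.14 on the log2 scale. Tgfb1 (ENSMUSG00000002603) lies on chromosome 7 (25687002 to 25705077, plus strand).

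Summed over the ligands, the level was 138 ± 11.01 FPKM (SD, n = 4) in WT and 124 ± 9.96 FPKM (SD, n = 4) in LRP1 KO, and the groups overlapped. The make-up of the sum was also compared, as a description. Tgfb2 made up 3.32, 3.497, 3.87 and 3.22% of it in WT libraries 1 to 4 and 7.83, 6.95, 8.12 and 3.91% in LRP1 KO libraries 1 to 4, so its share was higher in every knockout library, with library 4 just above the highest WT value. Tgfb3 remained the main ligand in both groups, at 73.3 ± 1.95% (SD, n = 4) in WT and 67.4 ± 3.15% (SD, n = 4) in LRP1 KO, with overlap.

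Of the signaling receptors, Acvrl1 rose, and neither Tgfbr1 nor Tgfbr2 passed the test. Acvrl1 (ALK1), the endothelial type I receptor that also binds BMP9 and BMP10, measured 11.3, 15.1, 14.97 and 15.2 FPKM over the WT libraries. The LRP1 KO libraries gave 18.1, 23.3, 21.3 and 19.4 FPKM. The groups did not overlap, and LRP1 KO library 4 lay among the other knockouts, above library 1. The means were 14.2 ± 1.88 FPKM for WT and 20.5 ± 2.25 FPKM for LRP1 KO (SD, n = 4 each), and the log2 fold change was 0.51 (SE 0.11, 95% CI 0.26 to 0.75, limma adjusted p = 0.01997, exact permutation p = 0.0286). The call was lost when LRP1 KO library 2 (0.45, limma adjusted p = 0.0616) or library 3 (0.49, 0.0613) was left out, and held without each of the other 6, with a limma adjusted p of 0.0133 without LRP1 KO library 4. WT library 1 (11.3 FPKM) lay below the other WT libraries, and without it the log2 fold change was 0.41. Acvrl1 (ENSMUSG00000000530) lies on chromosome 15 (101128522 to 101145336, plus strand).

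Tgfbr1 (ALK5), the type I receptor for all TGF-beta isoforms, measured 6.55, 6.52, 8.68 and 7.04 FPKM across WT and 7.61, 7.85, 8.15 and 9.52 FPKM across LRP1 KO. The groups overlapped, with WT library 3 above LRP1 KO libraries 1 to 3. The log2 fold change was 0.18 (SE 0.10, 95% CI -0.04 to 0.41, limma adjusted p = 0.229). Tgfbr2, the type II receptor that all isoforms need, measured 43.99, 46.9, 52.8 and 51.3 FPKM across WT and 43.1, 44.8, 42.8 and 47.7 FPKM across LRP1 KO. Its groups overlapped too, and its log2 fold change was -0.12 (SE 0.07, 95% CI -0.28 to 0.03, limma adjusted p = 0.235). These intervals leave room for changes of either sign, the larger of them upward for Tgfbr1 and downward for Tgfbr2. Tgfbr1 (ENSMUSG00000007613) lies on chromosome 4 (47353222 to 47414931, plus strand) and Tgfbr2 (ENSMUSG00000032440) on chromosome 9 (116084293 to 116175360, minus strand). The ratio of the type I receptors, Acvrl1 over Tgfbr1, was 1.98 ± 0.301 (SD, n = 4) in WT and 2.50 ± 0.390 (SD, n = 4) in LRP1 KO, with overlap.

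Of the co-receptors, Eng rose and Tgfbr3 missed the threshold. Eng, a co-receptor that also serves as a marker of activated endothelium, measured 48.7, 58.3, 61.7 and 57.5 FPKM over the WT libraries. Which cells of the mixture gave this level was not tested. The LRP1 KO libraries gave 144, 125, 125 and 63.2 FPKM. LRP1 KO libraries 1 to 3 were all more than 2-fold above the WT mean, whereas library 4 lay just above WT library 3, the highest of its group. The means were 56.5 ± 5.56 FPKM for WT and 114 ± 35.3 FPKM for LRP1 KO (SD, n = 4 each), or 202% of WT, and the log2 fold change was 0.94 (SE 0.22, 95% CI 0.44 to 1.45, limma adjusted p = 0.0279, exact permutation p = 0.0286). Without LRP1 KO library 4 it was 1.20 (limma adjusted p = 0.000325), with a knockout mean of 131 ± 11.1 FPKM (SD, n = 3). The call was lost without any other single library (limma adjusted p 0.0520 to 0.0810) and with low genes kept (0.0603). Eng (ENSMUSG00000026814) lies on chromosome 2 (32646595 to 32682669, plus strand) and 1.51% of its exonic bases are shared with Fpgs on the opposite strand.

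Tgfbr3 (betaglycan), the co-receptor that presents TGF-beta2 to TGFBR2, measured 29.3, 34.7, 41.2 and 35.7 FPKM across WT and 18.2, 24.6, 22.2 and 32.4 FPKM across LRP1 KO. LRP1 KO libraries 1 to 3 were below all WT libraries, and library 4 was above WT library 1. The means were 35.2 ± 4.91 FPKM for WT and 24.4 ± 5.99 FPKM for LRP1 KO (SD, n = 4 each), with a log2 fold change of -0.53 (SE 0.16, 95% CI -0.90 to -0.17, limma adjusted p = 0.05598, exact permutation p = 0.0571). It passed the threshold without LRP1 KO library 4 (-0.68, limma adjusted p = 0.00665) but in no other fit that left out a library (0.0620 to 0.144). Tgfbr3 (ENSMUSG00000029287) lies on chromosome 5 (107106570 to 107289629, minus strand).

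The ratio of Eng over Tgfbr3 was 1.66, 1.68, 1.496 and 1.61 in WT libraries 1 to 4, so it varied little among them. In LRP1 KO libraries 1 to 4 it was 7.93, 5.06, 5.65 and 1.95. All knockouts were above all WT libraries, and library 4 was again close to WT. The ratio was chosen with the levels of these genes known, so it is a description with no test.

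The latent binders fell together. Ltbp1, which holds the latent TGF-beta complex by a disulfide bond and anchors it in the matrix, measured 27.1, 27.2, 34.3 and 22.5 FPKM over the WT libraries. The LRP1 KO libraries gave 13.8, 14.4, 18.3 and 20.4 FPKM. Every knockout library lay below every WT library, with LRP1 KO library 4 next to WT library 4. The means were 27.8 ± 4.899 FPKM for WT and 16.7 ± 3.19 FPKM for LRP1 KO (SD, n = 4 each), or 60.1% of WT, and the log2 fold change was -0.70 (SE 0.15, 95% CI -1.04 to -0.37, limma adjusted p = 0.0198, exact permutation p = 0.0286). The call was lost when WT library 2 (-0.71, limma adjusted p = 0.0579), LRP1 KO library 1 (-0.62, 0.0580) or LRP1 KO library 2 (-0.64, 0.0619) was left out, and without LRP1 KO library 4 the adjusted p was 0.00529. Ltbp1 (ENSMUSG00000001870) lies on chromosome 17 (75005568 to 75392512, plus strand), and since levels were deposited per gene its starts shown above cannot be told apart.

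Ltbp2, a matrix protein of the same family that associates with fibrillin microfibrils and, unlike LTBP1, is not known to bind latent TGF-beta, measured 24.2, 29.9, 27.9 and 30.7 FPKM over the WT libraries. The LRP1 KO libraries gave 14.1, 15.6, 15.8 and 23.4 FPKM. The knockouts were all below WT, and library 4 lay just under WT library 1. The means were 28.2 ± 2.87 FPKM for WT and 17.2 ± 4.19 FPKM for LRP1 KO (SD, n = 4 each), or 61.2% of WT, with a log2 fold change of -0.70 (SE 0.14, 95% CI -1.02 to -0.38, limma adjusted p = 0.0176, exact permutation p = 0.0286). The call was lost without WT library 2 (-0.67, limma adjusted p = 0.0585) and without LRP1 KO library 1 (-0.62, 0.0515), 2 (-0.66, 0.0589) or 3 (-0.67, 0.0553), and without LRP1 KO library 4 the adjusted p was 0.000639. Ltbp2 (ENSMUSG00000002020) lies on chromosome 12 (84783212 to 84876532, minus strand), and 9.34% of its exonic bases overlap the antisense gene D030025P21Rik.

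**Figure D2:**
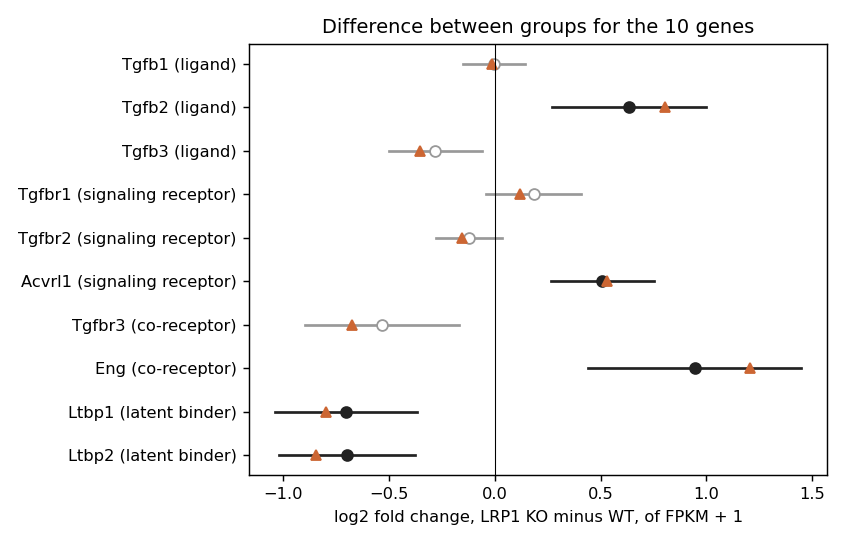
Log2 fold change of FPKM + 1, LRP1 KO minus WT, for each of the 10 genes (x axis), with circles for all 8 libraries, lines for the 95% confidence interval, filled black circles where the adjusted p passed 0.05, open grey circles where it did not, and orange triangles for the fit without LRP1 KO library 4. The triangle lies farther from 0 than the circle for Eng (1.20 against 0.94), Tgfb2 (0.81 against 0.63), Tgfbr3 (-0.68 against -0.53), Ltbp1 and Ltbp2, and near it for Acvrl1.

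Because FPKM is scaled by transcript length, levels could also be ordered across genes. In WT, mean FPKM fell from Tgfb3 (102 FPKM) through Eng (56.5), Tgfbr2 (48.7), Tgfbr3 (35.2), Tgfb1 (32.03), Ltbp2 (28.2), Ltbp1 (27.8), Acvrl1 (14.2) and Tgfbr1 (7.20) to Tgfb2 (4.80). Neighbours whose ranges over the libraries overlapped were Eng and Tgfbr2, although Eng was above Tgfbr2 in each WT library, and those in the run from Tgfbr3 to Ltbp1. In LRP1 KO, Eng had the highest mean (114 FPKM), in overlap with Tgfb3 (83.5), followed by Tgfbr2 (44.6). Tgfb1 (31.99), Tgfbr3 (24.4), Acvrl1 (20.5), Ltbp2 (17.2) and Ltbp1 (16.7) followed, neighbours within that run overlapping, and below them Tgfbr1 (8.28) overlapped with Tgfb2 (8.19) at the lower end. Tgfb2 thus lay below every other member in each WT library, and its range met that of Tgfbr1 in the knockouts.

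The members varied in different ways over the 4 knockout libraries. Eng and Tgfb2 were high in LRP1 KO libraries 1 to 3 and near WT in library 4, as was the endothelial marker sum (487, 274, 340 and 117 FPKM in LRP1 KO libraries 1 to 4, against 116 to 131 FPKM in WT). Of the 15 endothelial markers tested, all 15 had a positive log2 fold change and 0 were called by limma (10 at an unadjusted p under 0.05, 13 called without LRP1 KO library 4), and none of the 16 was at 0 throughout, Pecam1 being 7.96, 8.05, 8.76 and 6.802 FPKM across WT and 36.3, 18.5, 26.2 and 6.72 FPKM across LRP1 KO. The summed macrophage markers were higher in all 4 knockouts, library 4 included (376, 559, 227 and 516 FPKM, against 89.1 to 112 FPKM in WT), with 7 of 9 tested markers called higher. C1qa was higher on average without a call. Cd14 was lower on average (37.3 against 26.9 FPKM, limma adjusted p = 0.136), and was called lower without LRP1 KO library 4 (limma adjusted p = 0.0294). The fibroblast sum was 2470 to 3616 FPKM in WT and 2023 to 3201 FPKM in LRP1 KO, with 3 of 9 tested markers (Pdgfra, Dpt and Thy1) called lower. The summed mural cell markers were 667 to 833 FPKM in WT and 1033 to 1617 FPKM in LRP1 KO, with Acta2 and Tagln making up most of the sum. Of 7 tested mural markers, 6 had a positive log2 fold change, and Acta2, Tagln and Des were called higher. Pdgfrb was lower on average without a call (71.63 FPKM in WT against 58.02 FPKM in LRP1 KO, limma adjusted p = 0.221). The untested Rgs5 and Abcc9 were also lower on average and the untested Kcnj8 higher, each with overlap. Lymphocyte markers summed to at most 0.314 FPKM and platelet markers to at most 4.31 FPKM in any library. The cardiomyocyte sum (98.5 to 154 FPKM in WT and 86.4 to 118 FPKM in LRP1 KO) was nearly all Tnnt2 (95.5 to 152 and 81.6 to 109 FPKM). Of the other cardiomyocyte markers, Myl7 was at 1.04 to 1.68 FPKM in WT and 1.49 to 6.99 FPKM in LRP1 KO, Myh6 at 0.180 to 0.414 and 0.646 to 1.51 FPKM, and Actc1 at 0.315 to 0.766 and 0.595 to 1.97 FPKM, so the means of these 3 went the other way from Tnnt2. Tnni3 (0.981 to 1.33 and 0.397 to 0.937 FPKM) and Ryr2 (0.0276 to 0.0611 and 0.0154 to 0.0228 FPKM) were lower on average in LRP1 KO, as Tnnt2 was. The hepatocyte sum (11.4 to 11.7 and 12.0 to 27.9 FPKM) was nearly all Ahsg (10.1 to 11.1 and 11.5 to 27.2 FPKM), which was called higher, while Alb, Apoa1, Serpina1a and Cyp3a11 were at most 0.373 FPKM and Ttr had a mean of 0.881 FPKM in WT against 0.395 FPKM in the knockouts. Lung epithelial markers summed to 3.80 to 6.84 FPKM and 3.23 to 5.77 FPKM, with Scgb1a1 called lower (mean 2.89 against 1.13 FPKM, limma adjusted p = 0.007703) and Ager higher on average without a call (2.34 against 3.31 FPKM).

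With the mean log2 level of the endothelial markers as a covariate, 0 of the 10 members passed the threshold by limma, with 5 at an unadjusted p under 0.05, against 1.46% of all genes called and 10.9% at an unadjusted p under 0.05. The log2 fold change of Eng was then 0.34 (SE 0.14, limma adjusted p = 0.426) and that of Tgfb2 0.19 (SE 0.09, 0.531), whereas that of Acvrl1 was 0.54 (SE 0.16, 0.199), close to its value without the covariate. Ltbp1 was at -0.50 (SE 0.19, 0.366), Ltbp2 at -0.33 (SE 0.11, 0.269) and Tgfbr3 at -0.13 (adjusted p = 0.785). With the macrophage markers as the covariate, again 0 were called and 4 had an unadjusted p under 0.05 (0.5% and 24.6% of all genes), with log2 fold changes of 1.47 for Eng, 1.30 for Tgfb2, 0.26 for Acvrl1, -1.22 for Tgfbr3, -0.78 for Ltbp1 and -1.16 for Ltbp2. The macrophage covariate moves with the groups, and the median standard error over all genes was 0.206 with it against 0.0880 without. The part of the cell mixture in the members' differences was not tested beyond these fits.

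**Figure D3:**
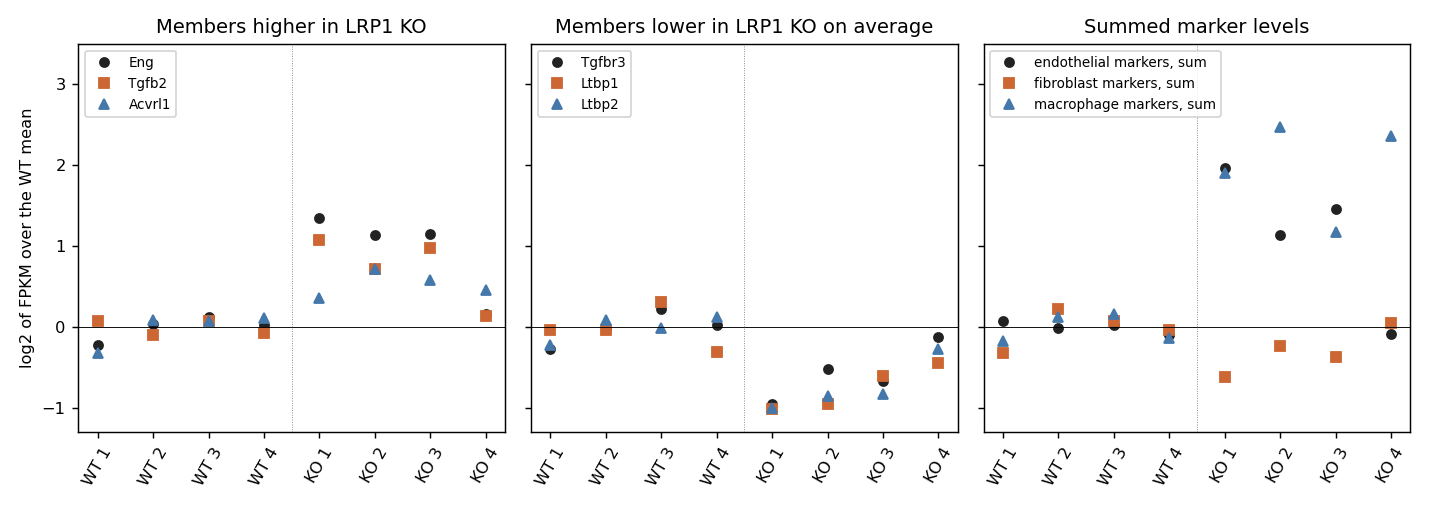
Level in each library relative to the WT mean (log2 of FPKM over the WT mean, y axis) for Eng, Tgfb2 and Acvrl1 (left), Tgfbr3, Ltbp1 and Ltbp2 (middle) and the summed endothelial, fibroblast and macrophage markers (right), with WT libraries left of the dotted line and LRP1 KO libraries right of it. In LRP1 KO library 4, Eng, Tgfb2 and the endothelial sum lie near 0, while Acvrl1 and the macrophage sum lie among the other knockout libraries.

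Outside the 10 genes, 59 symbols of the pathway were listed, of which 57 were in the table and 50 passed the filter. Of these, 13 rose, 2 fell and 35 did not pass the test, with a median log2 fold change of 0.06, beside -0.01 over all genes. Without LRP1 KO library 4, 21 were called. The counts of these lists stand against 13.6% of all genes called with all libraries (6.27% higher and 7.31% lower) and 26.2% without LRP1 KO library 4, and those of the SMADs (1 of 8, and 2 without that library) and the other receptors (0 of 5, and 1) lie near these shares. The lists were drawn up with earlier results of these data known, so the counts are descriptions.

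Latent binders and activators split by sign, with 2 of 10 higher and 2 lower, and 4 called without LRP1 KO library 4. Ltbp4 and Ltbp3, the remaining latent binding proteins, fell by 0.91 (SE 0.25, limma adjusted p = 0.0415) and 0.48 (SE 0.14, 0.0489) on the log2 scale, each with LRP1 KO library 4 inside the WT range and each lost when any library but that one was left out. Ltbp4 measured 29.7, 39.7, 28.9 and 28 FPKM across WT and 12.2, 14.6, 12.7 and 29.5 FPKM across LRP1 KO. Summed over Ltbp1 to Ltbp4, the level was 148, 170.4, 154 and 144 FPKM in WT and 79.6, 93.3, 87.6 and 137 FPKM in LRP1 KO, below WT in every knockout. Lrrc32 (GARP), which displays latent TGF-beta on the cell surface, measured 18.9, 19.05, 23.96 and 22.4 FPKM across WT and 38.5, 34.9, 41.1 and 25.4 FPKM across LRP1 KO, and rose by 0.69 (SE 0.14, adjusted p = 0.0187), a call that held in 4 of 8 fits that left out a library. Bmp1, a protease that processes matrix proteins and can cleave LTBP1, rose by 0.34 (SE 0.07, adjusted p = 0.0138), which held in all 8 such fits.

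Among the 5 other type I and type II receptors tested, 0 were called by limma with all libraries (1 had an unadjusted p under 0.05, and 1 was called without LRP1 KO library 4). The inhibitory Smad7, which blocks TGFBR1 and is itself induced by TGF-beta, was the only SMAD called of 8 (2 without LRP1 KO library 4), measuring 17.7, 18.7, 18.99 and 17.4 FPKM across WT and 26.7, 24.7, 25.6 and 21.6 FPKM across LRP1 KO (log2 fold change 0.42, SE 0.07, limma adjusted p = 0.00963). Of the SMAD regulators, 3 of 10 rose, as many as without LRP1 KO library 4. They were Pmepa1, which keeps SMAD2 and SMAD3 from the receptor, at 0.56 (SE 0.09, adjusted p = 0.00847), Smurf1, a ubiquitin ligase for SMADs and receptors, at 0.34 (SE 0.10, 0.0475), and Strap, a receptor-associated protein that aids SMAD7, at 0.19 (SE 0.05, 0.0357). The Smad7 and Pmepa1 calls held whichever library was left out, and those of Smurf1 and Strap only without LRP1 KO library 4.

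The list of TGF-beta target genes had 6 of 14 called, all higher, and 8 called without LRP1 KO library 4. In that fit Snai2 was added as higher (0.49, limma adjusted p = 0.0361) and Col1a2 as lower (-0.41, limma adjusted p = 0.0316). Postn, a matrix protein, measured 78.8, 75.2, 88.3 and 98.9 FPKM across WT and 136, 204, 205 and 141 FPKM across LRP1 KO, every knockout lying above WT, and rose by 0.98 (SE 0.15, limma adjusted p = 0.00663). The smooth muscle genes Acta2 and Tagln rose by 0.95 (SE 0.18, 0.0128) and 0.88 (SE 0.15, 0.00847), and both also stand in the mural marker list above. The calls of these 3 held in all 8 fits that left out a library. Ctgf, a matricellular protein, rose by 0.59 (SE 0.15, adjusted p = 0.0335), although LRP1 KO library 4 lay inside the WT range, and the call held in 3 of the 8 fits. With all libraries, the collagen genes Col1a1 and Col1a2 of the same list did not pass, at -0.09 (limma adjusted p = 0.695) and -0.28 (0.221).

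Of the ALK1 target genes, 3 of 6 passed the filter, and they did not share a direction. Id2 measured 28.5, 32.2, 28.1 and 26.8 FPKM across WT and 46.8, 40.2, 40.2 and 41.1 FPKM across LRP1 KO, and rose by 0.53 (SE 0.07, limma adjusted p = 0.00404), whichever library was left out. Id1 and Id3, which like Id2 encode inhibitors of helix-loop-helix factors, were at -0.32 (SE 0.10, 0.0649) and -0.45 (SE 0.13, 0.0535), lower on average and not past the threshold. Without LRP1 KO library 4 all 3 were called, Id1 and Id3 as lower (adjusted p = 0.0192 and 0.0127).

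**Figure D4:**
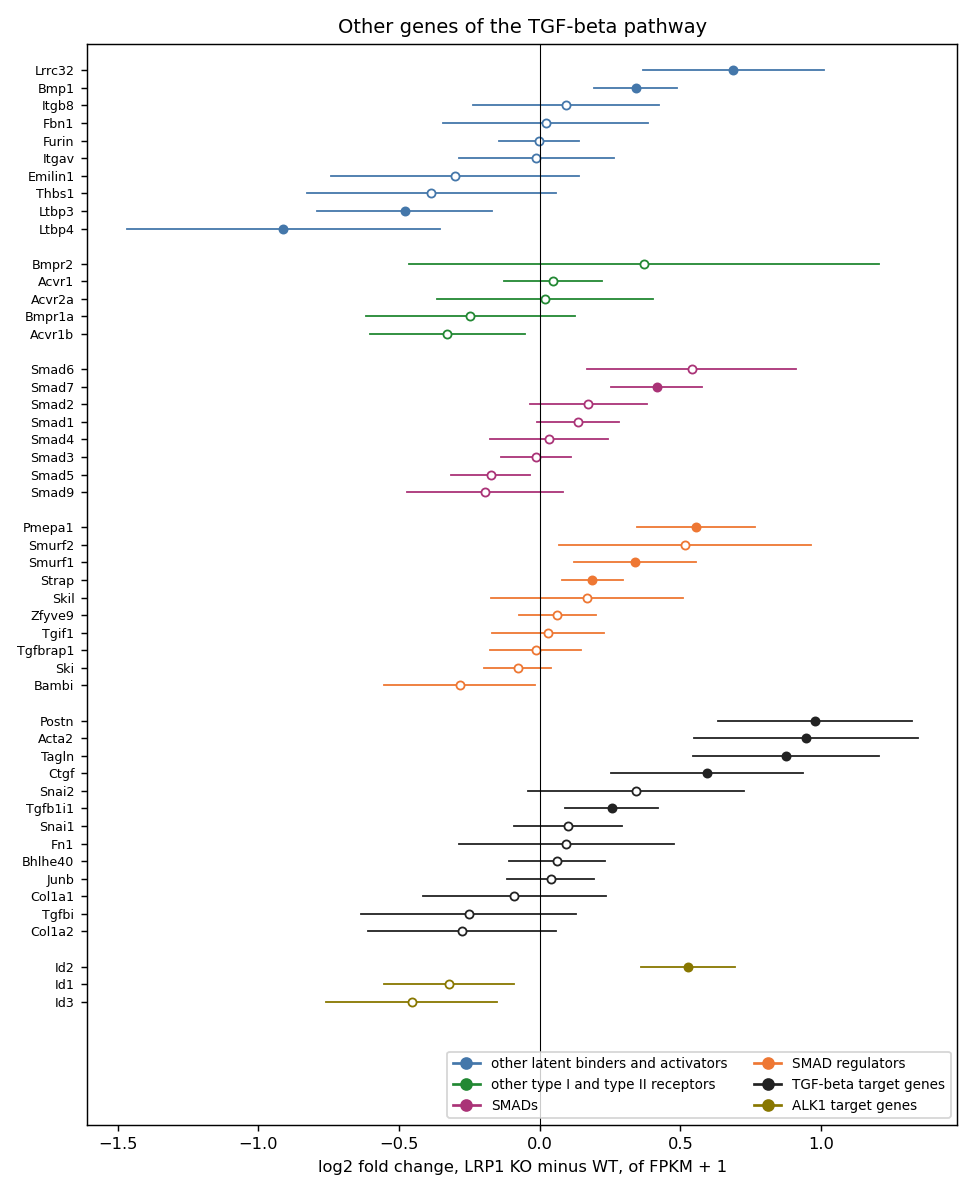
Log2 fold change of FPKM + 1, LRP1 KO minus WT (x axis), with 95% confidence intervals for the other pathway genes reported, coloured by list, filled where the adjusted p passed 0.05. Postn, Acta2 and Tagln lie farthest to the right, at 0.98 to 0.88, and Ltbp4 farthest to the left, at -0.91.

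The genes whose levels over the 8 libraries were most like those of a member were named by Pearson's r of log2(FPKM + 1), as a description over libraries that share the group difference. For Eng they were Gpr126 (r = 0.997) and the mitochondrial gene mt-Co1 (0.992). Tgfb2 was most like Ednrb (0.992), Serpinb9b (0.991) and Parvb (0.989), and Acvrl1 like P4ha2 (0.981), Ptx3 (0.978) and Pid1 (0.973). For Tgfbr3 they were Abca9 (0.993), Ednra (0.992) and Yeats2 (0.988), for Ltbp1 Scn3b (0.989), 1600012H06Rik (0.986) and Phf20 (0.983), and for Ltbp2 Lbh (0.990), Hnrnph2 (0.990) and Mylk (0.989). Tgfb3 was most like Mmd (0.992), well above the next, Best1 (0.959) and Wt1 (0.955). The best values were 0.935 for Tgfb1 (Taco1), 0.933 for Tgfbr1 (Ero1l) and 0.965 for Tgfbr2 (Il1rl2).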

How the data were processed

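RNA-Seq was done on 8 libraries, 4 per group. The authors deposited one table of FPKM per gene, quantile normalized over the libraries; the unit is inferred from the labels, which name TopHat2, Cufflinks and mm10, whereas the study's methods name STAR and a count of reads per gene. How the quantile normalization was done is not given in the sources used here. Sorted levels differ between libraries by a median of 0.574%, so differences in the overall distribution cannot be seen. Since the table holds no counts, FPKM were tested as log2(FPKM + 1) with limma 3.58.1 (eBayes with trend, group only) in R 4.3.3, on genes of at least 1 FPKM in at least 4 libraries, with Benjamini-Hochberg adjustment over all 11389 genes. Fold changes on this scale understate the change of genes with low levels. Single genes were also compared by an exact two-sided permutation test of mean log2(FPKM + 1) over all 70 splits (scipy 1.17.1), not adjusted over the 10. The fit was tested on simulated data. Positions are from GENCODE M21 (GRCm38) and promoters from RefSeq. The members, gene lists and tests were chosen with earlier results of these data known. Named were all members, Lrp1, at most 5 called genes per pathway list with the smallest p, and the 3 genes most like each member, of which 2 in all are not reported here. Col1a1, Col1a2, Snai2, Id1, Id3, Cd14, C1qa, Pdgfrb and the untested genes were named after their values were seen. Alternatives were a pseudocount of 0.1, no filter, rescaled libraries, no variance trend, the replicate number as a block, marker covariates and leaving out each library.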

Additional observations from a re-analysis of the deposited data

Results flagged for a closer look

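In 25 genes (Lrp1, the 10 members and the named pathway genes), each group of 4 libraries was searched for a single library far from its group by Dixon's criterion, which chance meets in about 1 in 20 groups. Of 50 groups, 5 met it. In WT, Acvrl1 was 11.3 FPKM in library 1, below 15.0 to 15.2 FPKM in the other 3. Ltbp4 was 39.7 FPKM in WT library 2, above 28.0 to 29.7 FPKM in the others, and 29.5 FPKM in LRP1 KO library 4, above 12.2 to 14.6 FPKM in the other knockouts. Strap was 43.8 FPKM in WT library 1, above 41.9 FPKM in each of the others. Id2 was 46.8 FPKM in LRP1 KO library 1, above 40.2 to 41.1 FPKM in the others. LRP1 KO library 4 did not meet the criterion for Eng or Tgfb2, although it lay nearest to WT for both.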

How the results depend on the processing

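The number of members called (5, against 13.6% of all genes) was 5 with a pseudocount of 0.1, with rescaled libraries and without the variance trend (13.5, 13.8 and 12.5% of all genes), 3 with no filter on low values (6.45% of 18026 genes), and 0 with either marker covariate, where fewer residual degrees of freedom remain. It ranged from 0 to 7 when a library was left out. The other pathway genes called (15) numbered 0 under either covariate (10 and 23 at an unadjusted p under 0.05 with the endothelial and the macrophage covariate, against 10.9 and 24.6% of all genes) and 8 to 21 without a library. All genes called (1547) fell to 166 with the endothelial and 57 with the macrophage covariate and ranged from 433 to 2959 without a library, the highest without LRP1 KO library 4. The cause was not tested. Tgfb1 changed sign with rescaled libraries (0.0115) and over the fits without a library (-0.0411 to 0.0461), and Tgfbr1 with the macrophage covariate (-0.0331), none of them past the threshold. No other member changed sign.

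Samples sharing a replicate number had deviations correlated at 0.158, 0.141, 0.34 and -0.312 for numbers 1 to 4. LRP1 KO libraries 1 to 3 each correlated best with the WT library of the same number, and library 4 with WT library 2 (0.377). WT library 4 correlated best with LRP1 KO library 3 (0.331). These values do not settle whether the numbers pair the libraries. With the replicate block 7 members, 10 other pathway genes and 1013 genes (8.89%) were called, with Tgfb3 (adjusted p = 0.0479) and Tgfbr3 (0.0466) added. Exact permutation tests gave 5 members under 0.05 with either pseudocount. Depth is unknown, so counting error could not be computed.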

Other observations

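The pathway genes left untested had levels under 1 FPKM in every library. Hey2, a Notch and ALK1 target, measured 0.208, 0.2501, 0.185 and 0.261 FPKM across WT and 0.651, 0.64, 0.777 and 0.283 FPKM across LRP1 KO, so that all knockouts were above all WT libraries (exact two-sided permutation p = 0.0286, n = 4 per group, not adjusted), with library 4 again nearest to WT. Its relative Hey1 measured 0.304, 0.348, 0.188 and 0.166 FPKM and 0.643, 0.461, 0.517 and 0.211 FPKM, with overlap, and Tmem100, an endothelial ALK1 target, 0.184, 0.232, 0.362 and 0.281 FPKM and 0.458, 0.246, 0.495 and 0.237 FPKM, also with overlap. Itgb6, the integrin subunit by which epithelial cells activate TGF-beta, stayed at or below 0.281 FPKM, and the receptors Acvr1c, Acvr2b and Bmpr1b at or below 0.678 FPKM. At such levels and with depth unknown, these differences carry an unknown counting error.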
